A study of Mus musculus with 5 samples.

Results

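The cytosolic ribosomal protein genes were examined in the hippocampus of mouse pups exposed to cocaine before birth. Members were the genes whose symbol in the array annotation starts with Rpl or Rps and a digit, or is Rplp0, Rplp1, Rplp2 or Rpsa, without the Rps6k kinases, Rps4l, Rps19bp1, pseudogenes and paralogs whose names end in l or l1. This gave 70 genes, 44 of the large and 26 of the small subunit, read by 126 of the 44290 array features. All 70 were among the 28035 genes and unnamed features tested. Pups came from CD1 dams injected under the skin with 20 mg/kg cocaine hydrochloride 2 times a day from gestational day 8 to 19, or with saline on the same schedule. Saline dams were pair-fed to the cocaine dams, all litters of both groups were raised by surrogate dams, and male pups were used on postnatal day 3. The array titles name the hippocampus. For gene expression the paper cut the pyramidal layer of the right hemisphere out by laser, but it describes no expression arrays. If the arrays used that tissue, their RNA is from a cell layer rich in pyramidal neurons and not from sorted cells. Each of the 5 arrays carried cocaine RNA in channel 1 and saline RNA in channel 2, each with an Alexa dye of its own that was never exchanged, and dye and treatment cannot be told apart. The labels present the arrays as preliminary data and do not tie them to litters. The p-values below therefore refer to the spread from array to array, part or all of which may be technical.

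The deposited values are log2 ratios between the channels. Which channel is the numerator is stated nowhere in the sources used here; the order of the channels makes cocaine the likely one, and all signs below take it so. Arrays 1 to 5 had medians of -2.68, -2.52, -0.37, -0.78 and 0.26 as deposited, so each array was centred on its own median, and a positive value here means higher than the median feature of that array. A value that equals the ratio of a pair of whole numbers, neither above 30, at 3 decimals is called a small whole-number ratio here. Such values made up 34.0% and 38.2% of measured features on arrays 1 and 2, and 85.8%, 86.7% and 86.2% on arrays 3 to 5. Exact zeros and a ceiling value were treated as missing, which left 89.1%, 86.3%, 81.3%, 75.9% and 44.6% of features measured on arrays 1 to 5. Ratios carry no level, so neither the abundance of a message nor the presence of pyramidal markers can be checked here, and fewer cells of a type and less RNA per cell cannot be told apart.

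The ribosome reads mRNA on its small subunit and joins amino acids on its large subunit. Each subunit is ribosomal RNA dressed with proteins that are made in matched amounts and carried into the nucleolus for assembly. The mRNAs of these proteins are among the most abundant of any cell, and in vertebrates they start with a tract of pyrimidines (C and T), the TOP motif, through which the mTOR pathway and the LARP1 protein control their translation. Growing neurons also carry ribosomes into dendrites and axons.

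To show what such a tract looks like, the start sites of the genes were read from RefSeq promoter sequences of the mouse assembly GRCm38.p6. Of the 70 genes, 56 matched, with 66 annotated starts. The following windows of 30 bases have the annotated start at base 16, and capitals mark the run of C and T that touches it or lies within 3 bases of it. They were chosen to show long runs in 3 genes with high ratios (Rpl28, Rpl38, Rplp2) and in 3 genes with low ratios (Rpl14, Rpl27a, Rps6), and a short run in Rpl41, whose ratio is high.
Rpl28, chr7:4792950-4792979, plus strand: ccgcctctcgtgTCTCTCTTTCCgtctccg
Rpl38, chr11:114668565-114668594, plus strand: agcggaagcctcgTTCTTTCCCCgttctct
Rplp2, chr7:141447636-141447665, plus strand: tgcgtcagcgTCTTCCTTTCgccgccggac
Rpl41, chr10:128549154-128549183, minus strand: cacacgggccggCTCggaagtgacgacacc
Rpl14, chr9:120571502-120571531, plus strand: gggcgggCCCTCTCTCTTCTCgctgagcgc
Rpl27a, chr7:109519180-109519209, plus strand: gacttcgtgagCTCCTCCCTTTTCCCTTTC
Rps6, chr4:86857353-86857382, minus strand: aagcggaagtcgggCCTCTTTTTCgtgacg

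Counted only at or within 3 bases of the annotated start, long runs stood at a minority of the starts. Runs further away, such as those in the windows of Rpl4 and Rpl13, were not counted. Genes without a counted run may therefore still have such a tract. A run of at least 8 pyrimidines was at 19 of the 66 starts (28.8%), against 7.43% of the 32851 promoters in the table, and a run of at least 6 at 36.4% against 15.7%. CTTTC on the sense strand within 15 bases of the start was found at 22.7% of the members' starts and 4.05% of all starts. Over the full window of 250 bases before to 50 after the start and on both strands, CTTTC was present in 81.8% of member promoters against 57.3% of all. CCGGAAG, a core that ETS family factors bind, was in 37.9% against 8.86%, and TATAA in 24.2% against 24.9%. These matches are letters in a window and not sites. The 19 genes with the long run had a median log2 ratio of 1.86 with 12 called higher, and the other 37 genes a median of 1.91 with 27 called higher, so the medians of both sets lay close together.

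Relative to the array medians, the ribosomal protein genes as a group stood high in the cocaine channel. The median of their mean log2 ratios was 1.97 (quartiles 1.47 and 2.19), against -0.14 over all genes and features tested. Before the centring that is used throughout this paragraph, member medians on arrays 1 to 5 were -0.4408, 0.965, 0.8653, 0.2735 and 1.9323, negative on array 1 alone. By limma with Benjamini-Hochberg adjustment over all 28035, 49 of the 70 genes were called higher at an adjusted p of 0.05, where 5.89% of everything tested was called higher. None of the 70 was called lower, where 1.16% of everything tested was. The 49 were 33 of 44 large subunit genes and 16 of 26 small subunit genes, with adjusted p-values of 0.0102 to 0.0469. Without adjustment 58 members had p under 0.05, as had 6666 of all tested. Of the 68 members measured on all 5 arrays, 59 lay above the array median on every one, against 23.0% of the 11731 genes and features measured on all 5. With limma run on these 11731 alone, 56 of the 68 members were called higher, against 16.5% of everything tested there.

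The number of calls depended on the reference level, on the treatment of zeros and on arrays 1 and 2. No member was called without array 2 and 1 member without array 1, with medians of 1.56 and 1.88, although 56 and 57 still had an unadjusted limma p under 0.05. The loss ran through the whole table, since 0.258% and 0.232% of everything tested was then called higher, with 5037 of 23616 and 5010 of 23291 at an unadjusted p under 0.05. Without array 3, 4 or 5 the counts were 44, 42 and 41, where 5.13%, 5.03% and 6.24% of everything tested was called higher. With no centring, 0 members were called by limma, with 1 at unadjusted p under 0.05 and a median of 0.75 against -1.52 for all tested, and with exact zeros kept as ratios 0 were called, with 55 at unadjusted p under 0.05. Here too few features were called higher at all, 0.225% with no centring, where 8111 were called lower, and 0.163% with zeros kept.

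**Figure D1:**
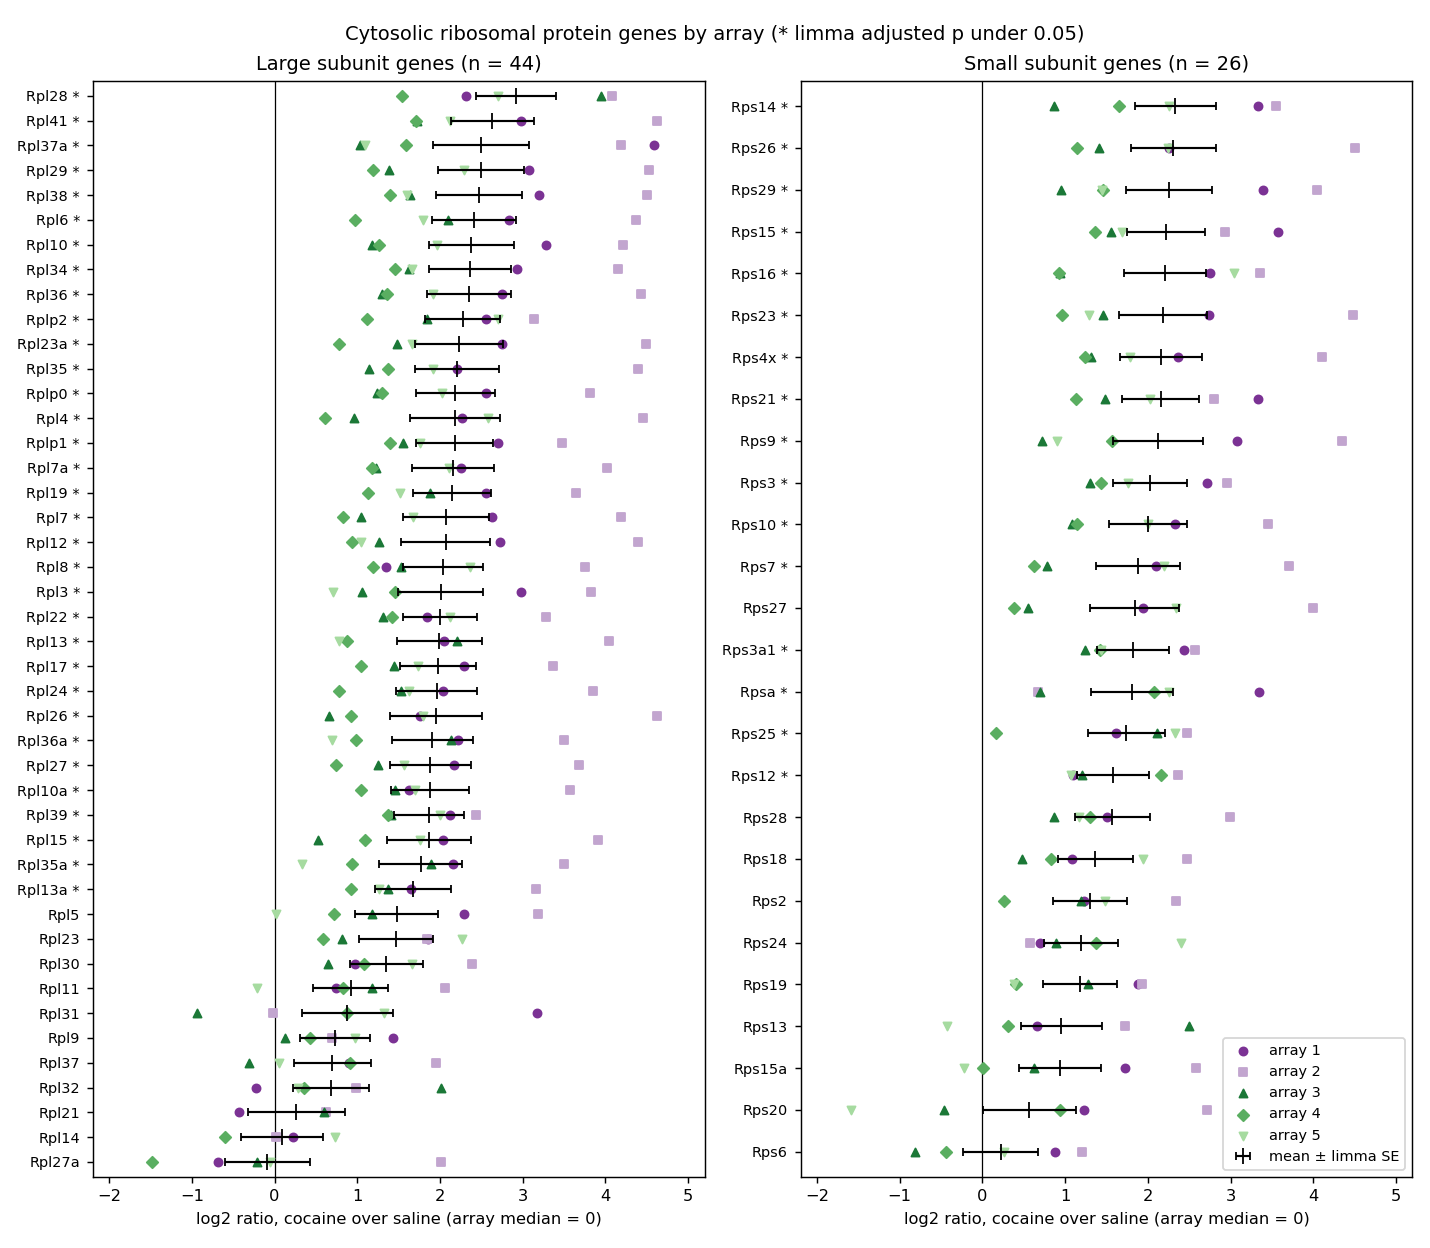
Log2 ratio of cocaine over saline, relative to the array median, for each of the 44 large subunit (left) and 26 small subunit genes (right), with 1 point per array and the mean ± SE from limma; an asterisk marks an adjusted p under 0.05. The means run from 2.92 for Rpl28 down to -0.08 for Rpl27a, and the squares of array 2 are the rightmost points of 58 of the 68 genes measured on all arrays.

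Rpl28, a large subunit protein, had the highest mean. Its log2 ratios on arrays 1 to 5 were 2.31, 4.08, 3.95, 1.55 and 2.71, a mean of 2.92 ± 0.48 (SE from limma, adjusted p = 0.0102). It was the one member with a value near 4 on array 3, where the other 68 measured members lay at or below 2.50. Rpl41, which encodes a very short basic peptide that bridges the subunits, had 2.99, 4.63, 1.72, 1.71 and 2.13 (mean 2.63, adjusted p = 0.0129). Both genes were thus well above the array median on each array.

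Rpl37a, a zinc-binding protein of the large subunit, had 4.59, 4.19, 1.03, 1.59 and 1.10 (mean 2.50, adjusted p = 0.0205). Its values on arrays 1 and 2 were over 2 units above those on arrays 3 to 5. Rpl29 also had a mean of 2.50 (adjusted p = 0.0143), and its 4 probes gave means of 2.18, 2.18, 2.79 and 2.84, so all 4 stood high. Rpl38, which in mouse is needed for patterning of the axial skeleton through translation of Hox mRNAs, had 3.19, 4.51, 1.64, 1.40 and 1.60 (mean 2.47, adjusted p = 0.0145).

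The other genes among the 12 highest means were Rpl6 (2.41), Rpl10 (2.38), Rpl34 (2.37), Rpl36 (2.35), Rps14 (2.33), Rps26 (2.31) and Rplp2 (2.28), each called. Of the 12, 10 encode large subunit and 2 small subunit proteins. Rps14 and Rps26 lie where the mRNA passes through the small subunit, at the platform and the exit of the channel. Rps14 had 3.33, 3.55, 0.87, 1.65 and 2.26 on arrays 1 to 5, and Rps26 had 2.25, 4.50, 1.41, 1.14 and 2.24.

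The acidic stalk of the large subunit recruits elongation factors to the ribosome. Its base Rplp0 and its paired arms Rplp1 and Rplp2 were called higher together. Rplp0 had 2.56, 3.81, 1.24, 1.30 and 2.03 (mean 2.19 over 3 probes), Rplp1 had 2.70, 3.48, 1.55, 1.40 and 1.75 (mean 2.18), and Rplp2 had 2.56, 3.14, 1.85, 1.12 and 2.71 (mean 2.28). The means of the 3 genes lay closer together than the SE of any of them (0.45 to 0.48).

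Proteins along the peptide tunnel and around its exit lie near the path of the nascent chain. Some of those at the exit meet factors that fold or sort the chain. Of 9 genes for tunnel or exit proteins 8 were called higher, with means of 1.87 for Rpl39, 1.95 for Rpl26, 1.98 for Rpl17, 2.00 for Rpl22, 2.15 for Rpl19, 2.18 for Rpl4, 2.21 for Rpl35 and 2.23 for Rpl23a. The gene not called was Rpl31, at 3.17, -0.02, -0.93, 0.88 and 1.32 (mean 0.88, adjusted p = 0.348), whose arrays lay on both sides of the median. These values mix 2 probes, since 1 was measured on 3 arrays and the other on 4. Small whole-number ratios made up 3 of the 3 values of the first and 2 of the 4 values of the second. Along the mRNA channel, Rps3, Rps14 and Rps26 were called, with a mean of 2.03 for Rps3, which sits at the channel entry. Rps2, its neighbour there, had a mean of 1.30 (adjusted p = 0.0934).

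Rpl5 and Rpl11 form a particle with 5S ribosomal RNA that enters the large subunit during assembly and, when free, binds Mdm2 and so stabilises p53. Neither was called. Rpl5 had 2.29, 3.19, 1.17, 0.71 and 0.01 (mean 1.48, adjusted p = 0.094), and Rpl11 had 0.75, 2.06, 1.18, 0.83 and -0.21 (mean 0.92, adjusted p = 0.235). Rpl5, read by 1 probe, was lowest on array 5. Rpl11 averages 2 probes. The probe annotated with a curated RefSeq mRNA had 2.319, 4.124, 1.179, 0.828 and 1.156 (mean 1.92), lowest on array 4. The other had -0.825, -0.012 and -1.585 on arrays 1, 2 and 5 and no usable value on arrays 3 and 4. With curated-record probes alone, chosen after values were seen, limma called Rpl11 higher (adjusted p = 0.03) but not Rpl5 (0.0777).

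All 4 X-linked members were called, with means of 2.38 for Rpl10, 1.91 for Rpl36a, 1.87 for Rpl39 and 2.16 for Rps4x. Rpl10 joins the large subunit last, in the cytoplasm, and variants of its human counterpart occur in autism and X-linked intellectual disability. Rpl39 had the smallest spread of any member measured on all arrays, with 2.12, 2.44, 1.41, 1.37 and 2.00 (SD 0.46).

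Among members known for a second task, Rpl13a, which in human monocytes represses translation of inflammatory mRNAs as part of the GAIT complex, was called with a mean of 1.67 (adjusted p = 0.0407). Rpsa, also described as a laminin receptor, was called with a mean of 1.81 (adjusted p = 0.0387). Rps6, the substrate of S6 kinase that is used as a readout of mTOR activity, had 0.88, 1.21, -0.81, -0.44 and 0.26 (mean 0.22, adjusted p = 0.808). Rps19, mutated in Diamond-Blackfan anaemia in humans, had a mean of 1.18 (adjusted p = 0.127).

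At the low end of the list, means of the members measured on all 5 arrays were -0.08 for Rpl27a, 0.22 for Rps6, 0.57 for Rps20, 0.68 for Rpl32, 0.70 for Rpl37 and 0.73 for Rpl9. Rpl27a was the only member with a negative mean on the centred scale, whereas 56 of 70 means were positive with no centring. Its values were -0.68, 2.01, -0.21, -1.48 and -0.06, above the median on array 2 alone. Rpl14 and Rpl21 were read by 1 probe each and were missing on 1 and 2 arrays, with means of 0.09 and 0.26. The other 13 members that were not called were Rps27, Rps28, Rpl5, Rpl23, Rps18, Rpl30, Rps2, Rps24, Rps19, Rps13, Rps15a, Rpl11 and Rpl31, with means between 0.88 and 1.84. Rps27 (mean 1.84, adjusted p = 0.0525) and Rps28 (1.57, 0.0514) lay just outside the threshold, and Rpl35a (1.77, 0.0469) and Rpl26 (1.95, 0.0465) just inside it.

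Low values were often those of 1 probe beside a high one. Of the 40 members with several probes, 17 had probe means of opposite sign. For Rps6, 1 probe gave 2.53, 4.15, 1.23, 1.22 and 0.26 on arrays 1 to 5 (mean 1.88), and the other gave -0.77, -1.74, -2.86 and -2.10 on arrays 1 to 4 (mean -1.86). The first of them ran like the rest of the group and the second opposite to it. For Rpl32 the 2 probe means were 2.13 and -1.45, for Rps20 2.69 and -0.70, and for Rpsa 2.70 and -1.55, the last on 2 arrays only. Rps19 had 1 probe at -1.53 beside 2 at 2.45 and 2.61.

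The remaining genes with probes of opposite sign were Rps28, Rpl37, Rps24, Rps2, Rps25, Rps18, Rpl11, Rps15a, Rpl30, Rpl9, Rpl27a and Rpl31. In 13 of the 17 genes the lowest probe was annotated with a sequence record other than a curated RefSeq mRNA (accession prefix NM). Over all members the 102 probes on NM records had a median of 2.14, with 94 above 1 and 4 below 0, and the 24 probes on other records a median of -0.27, with 7 above 1 and 14 below 0. In the 21 genes with both kinds the NM probes were higher in 19, by a median of 2.36 on the log2 scale, the exceptions being Rplp0 and Rps4x. Which transcript or strand the low probes read was not tested, and for many members processed pseudogenes or near-identical copies could add to a probe's signal.

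**Figure D2:**
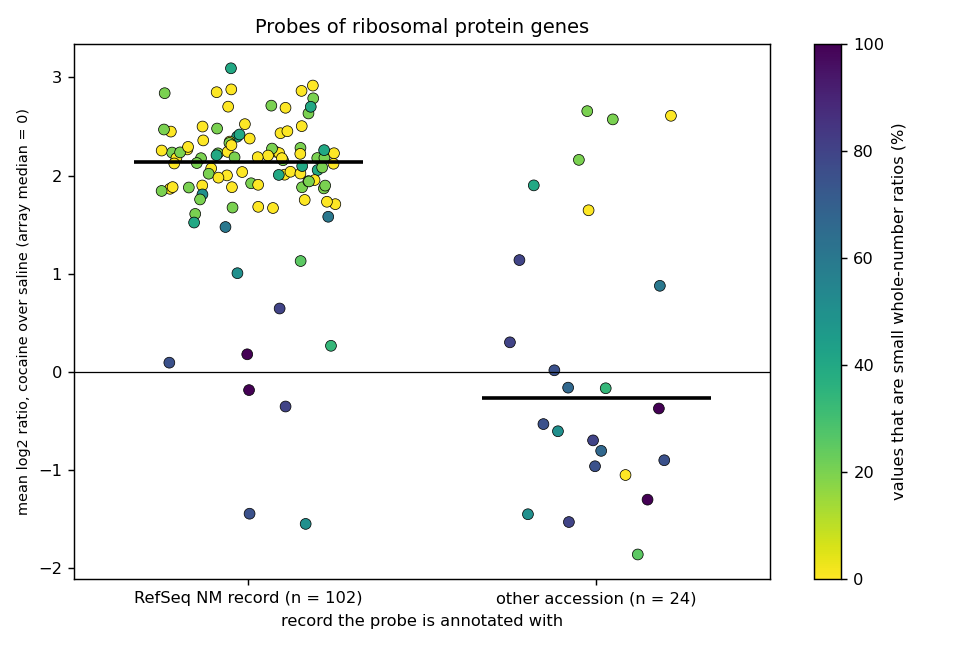
Mean log2 ratio of each of the 126 probes of ribosomal protein genes, split by the kind of sequence record a probe is annotated with; bars are medians, and the colour gives the percentage of a probe's measured values that are ratios of whole numbers up to 30. Most of the 102 NM probes form a band around their median of 2.14, while the 24 other probes spread from -1.86 to 2.66.

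Probes with low means were also read more often as small whole-number ratios. Among the 25 probes with a mean of 1 or less, small whole-number ratios made up 69.8% of measured values, against 14.2% among the 101 probes above 1. With NM probes alone, a setting chosen after these values were seen, 62 of the 70 genes were called higher and all 70 means were positive, with a median of 2.07 and 8.35% of all genes tested called higher. The 8 not called were Rpl5, Rpl9, Rpl14, Rpl21, Rpl27a, Rpl31, Rpl37 and Rps15a, while Rps6, Rps20 and Rpl32 were called with this setting.

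The height of the group differed from array to array. Member medians on arrays 1 to 5 were 2.24, 3.49, 1.24, 1.05 and 1.67, at which the median member had percentile ranks of 94.4, 96.4, 79.4, 77.2 and 88.6 within its array. Members above the array median numbered 67 of 70, 69 of 70, 64 of 69, 66 of 69 and 64 of 69. In the top 10% of the array lay 50, 56, 10, 3 and 31 of them. The members were packed most tightly where they were lowest, with an interquartile range of 0.61 and 0.59 on arrays 3 and 4, against 1.90 and 1.88 for all features tested there.

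**Figure D3:**
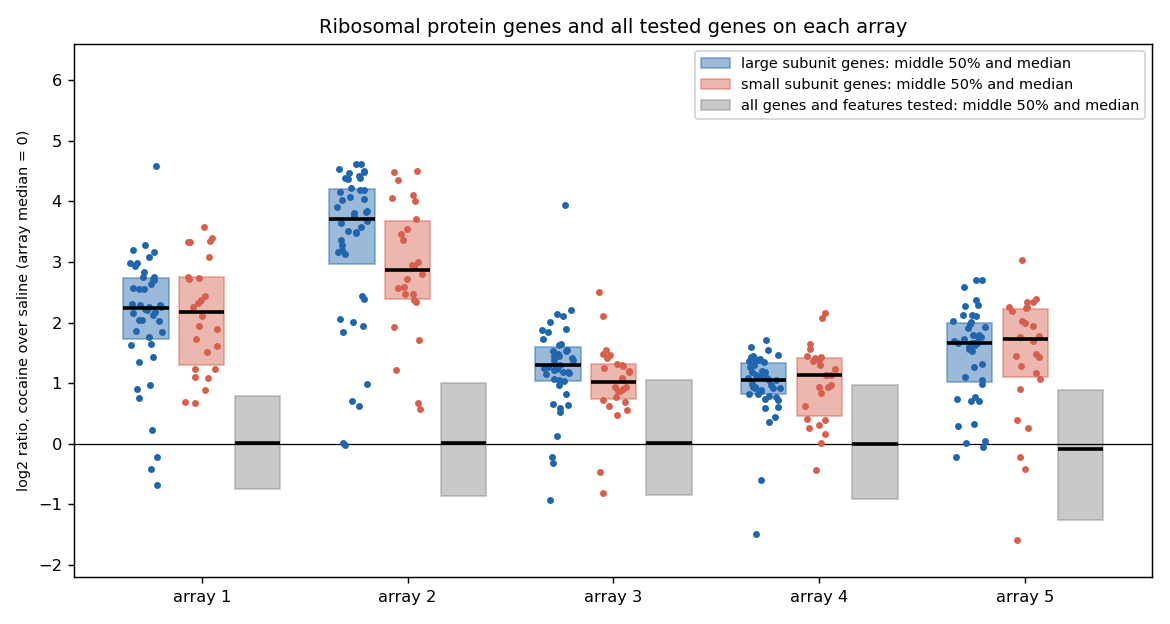
Log2 ratios relative to the array median on each array for large subunit genes, small subunit genes and all genes and features tested; boxes hold the middle 50%, black lines are medians and points are single genes. The boxes of both subunits lie above that of all features on arrays 1 and 2 and overlap its upper part on arrays 3 and 4, with member medians of 1.24 and 1.05.

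On arrays 3 to 5 the position of the group depended on which features it was set against. Member probes were small whole-number ratios in 18.5%, 14.5%, 27.7%, 29.3% and 26.3% of their values on arrays 1 to 5, a lower share than all features on each array. Among values that were not such ratios, member probes had medians of 2.32 and 4.05 on arrays 1 and 2, against -0.01 and -0.03 for all features. On arrays 3, 4 and 5 they had 1.41, 1.19 and 1.80, against 1.59, 1.32 and 1.50 for all features. In that subset members were thus above the other features on arrays 1, 2 and 5 and slightly below them on arrays 3 and 4. Fitted on these values alone, 62 of the 65 members left were called higher, but so were 48.3% of all genes and features, with a median of 2.09 for members against 1.37 for all. How far signal strength sets the ratio was not tested, since the table used here holds no intensities.

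Arrays 1 and 2 were then set against arrays 3 to 5, a split by the share of small whole-number ratios and by deposited level, not by the labels. The mean of arrays 1 and 2 exceeded that of arrays 3 to 5 in 67 of 69 members, with a median difference of 1.59 on the log2 scale, against 0.23 over the 21406 genes and features that could be fitted, of which 12511 were positive. This direction holds for centred values, and with no centring the median difference of the members was -0.72. By limma no member passed an adjusted p of 0.05 (0 of 69, smallest adjusted p = 0.687), where 0.0% of all fitted were called. At an unadjusted p under 0.05 there were 19 members (27.5%), against 7.19% of all fitted. In 42 of the 68 members measured throughout, the lower of arrays 1 and 2 was above the highest of arrays 3 to 5 (61.8%), against 20.6% of the 11731 genes and features. Without array 2 the median difference was 0.93.

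The gene with the largest difference was Rpl37a, with a mean of 4.39 on arrays 1 and 2 and 1.24 on arrays 3 to 5 (difference 3.15, unadjusted p = 0.00208 and adjusted p = 0.687 by limma). Rps9, a protein of the small subunit body that takes part in decoding fidelity, had 3.71 and 1.06 (difference 2.65). Rpl28 had 3.20 on arrays 1 and 2 and 2.73 on arrays 3 to 5 (unadjusted p = 0.641 by limma). The 2 members whose averaged values ran the other way were Rps24, at 0.64 on arrays 1 and 2 and 1.56 on arrays 3 to 5, and Rpl32, at 0.38 and 0.89. Both genes average several probes, not all measured on every array. The NM probe of Rps24 had 2.881, 4.133, 1.834, 1.376 and 2.396 on arrays 1 to 5. That of Rpl32 had 2.757, 3.419, 2.015, 1.195 and 1.252. Probes on other records were low on arrays 1 and 2, and missing on arrays 4 and 5 for Rps24 and on array 3 for Rpl32. On arrays 1 and 2 alone 45 of 70 members were called higher, with a median of 2.90, where 5.24% of everything tested was called. On arrays 3 to 5 alone limma called 0 of 68 members and 0 of 12689 features higher. There 43 members and 2722 of all features had an unadjusted p under 0.05, and the member median was 1.31 relative to the array median, whereas on arrays 3 and 4 members lay below the features that were not small whole-number ratios.

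**Figure D4:**
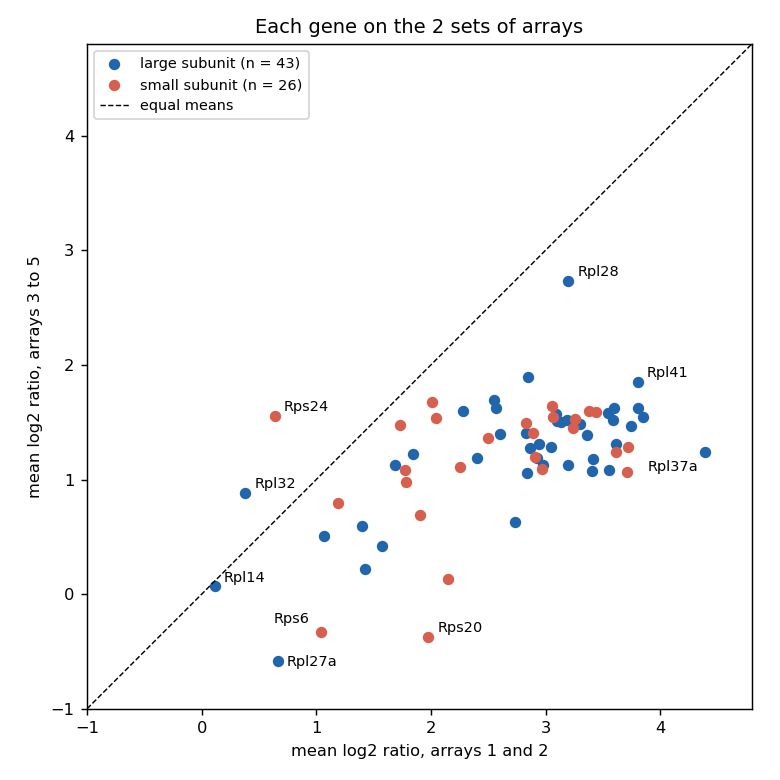
Mean log2 ratio of each ribosomal protein gene on arrays 1 and 2 (horizontal) and on arrays 3 to 5 (vertical), with the line of equal means dashed. Of 69 genes 67 lie below the line, Rps24 and Rpl32 lie above it, and of the genes under 1.5 on the horizontal axis all but Rps24 lie under 1 on the vertical axis. Rps24 and Rpl32 average probes that were not all measured on every array.

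The order of the members was only loosely shared between arrays. Over the 68 members measured throughout, Spearman's rho between pairs of arrays ran from 0.10 (arrays 3 and 5) to 0.57 (arrays 1 and 4), against 0.29 to 0.56 over 11731 genes and features. These are descriptions across genes, which share arrays and are not independent. Array 2 gave the highest value in 58 of the 68 members and array 4 the lowest in 33.

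Large and small subunit genes differed by less than the spread of their difference between arrays. Their medians were 2.24 and 2.18 on array 1, 3.72 and 2.86 on array 2, 1.30 and 1.01 on array 3, 1.05 and 1.14 on array 4, and 1.67 and 1.72 on array 5. Large minus small was 0.06, 0.85, 0.29, -0.09 and -0.06, a mean of 0.21 ± 0.39 (SD, n = 5). With means in place of medians the difference was 0.13 ± 0.20. Array 2 decided most of it, since without that array the mean was 0.06. Probes on records other than NM were 9 of 76 for the large subunit and 15 of 50 for the small subunit, and with NM probes alone large minus small was -0.06.

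Genes next to the ribosomal proteins in the same process were compared as lists. Of 7 related genes outside the naming rule, which are 6 ribosomal proteins or paralogs and the Rps19-binding protein gene Rps19bp1 (0.27), 3 were called higher, namely Fau (1.88), whose product includes the small subunit protein eS30, Rpl22l1 (2.32) and Rpl36al (1.63), with a median of 1.61. Of 13 elongation and termination factors, 2 were called, Eef1a1 (2.17) and Eef1a2 (2.30), which bring aminoacyl-tRNA to the ribosome (median 1.04). Of 14 genes of the TOP mRNA group and its control, 2 were called, Tpt1 (2.20), itself a TOP mRNA, and Hnrnpa1 (2.00), and the median was 0.11.

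Lists of factors that build ribosomes had lower medians than the proteins they assemble, a difference that was not tested. Of 47 assembly factors 7 were called higher, among them Fbl (2.55), which methylates ribosomal RNA, Rsl24d1 (2.31), Bop1 (2.14) and Nle1 (2.05), with a list median of 0.49. Of 12 genes of RNA polymerase I and its factors, Ubtf (1.95) alone was called, with a median of -0.16. Mitochondrial ribosomal proteins, which serve a separate ribosome, had a median of 0.57, and 4 of 77 were called, Mrpl32 (2.19), Mrps26 (1.83), Mrpl58 (1.83) and Mrpl13 (1.61). No gene of these 6 lists was called lower. Means of the called genes of these lists lay within the range of the ribosomal proteins called. A call itself asks for a mean well above its SE, so this overlap does not show likeness. The share called higher was 70.0% among cytosolic ribosomal protein genes and 5.89% of everything tested. With only genes and features measured on all 5 arrays, 56 of 68 members were called, against 16.5% of everything tested.

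**Figure D5:**
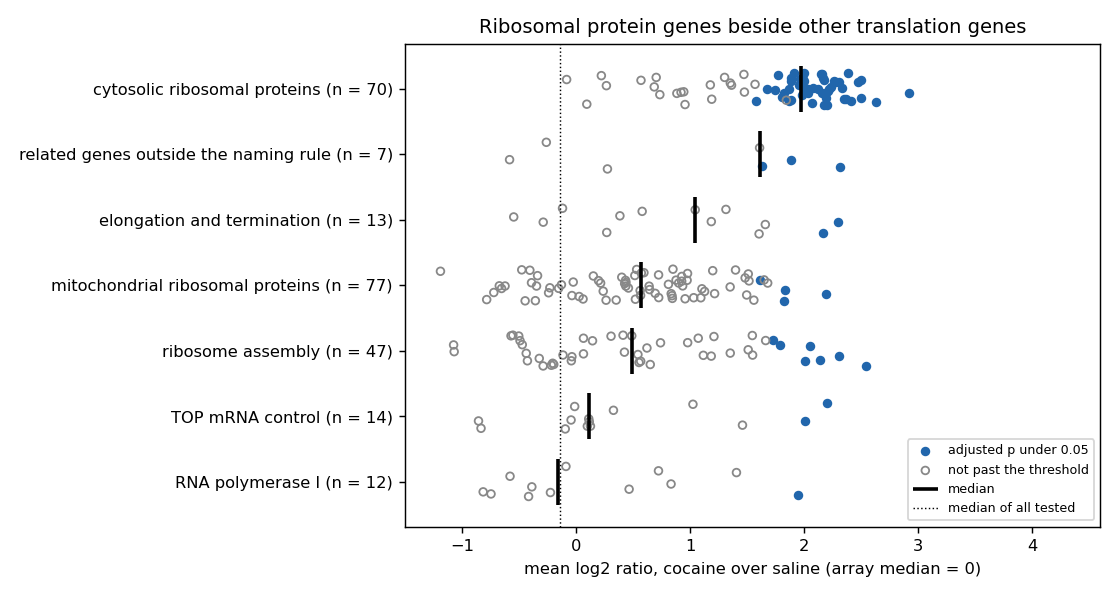
Mean log2 ratio of each gene in the cytosolic ribosomal protein group and in 6 related lists, with filled points for an adjusted p under 0.05 by limma, bars for list medians and a dotted line at the median of all tested (-0.14). Medians run from 1.97 for cytosolic ribosomal proteins down to -0.16 for RNA polymerase I.

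Among cell type markers, 1 of 12 pyramidal neuron genes was called higher (Slc17a6, 1.87), with a list median of 0.58. Medians of the markers of other cells were 0.75 for interneurons (0 of 10 called), 1.10 for astrocytes (Fabp7, a radial glia and astrocyte gene, called of 8), -0.03 for the oligodendrocyte lineage (0 of 6), 0.01 for microglia (0 of 7), -0.66 for endothelium (0 of 6) and -0.21 for choroid plexus (0 of 4). Of 4 red cell genes, Hba-a1 (3.26) and Hba-a2 (3.26), the alpha globins, were called higher and Slc4a1 (-2.04) was called lower. Hba-a1 had 4.33, 5.02, 1.17, 4.14 and 1.63 on arrays 1 to 5, so that it stood high on the same arrays 1 and 2 and also on array 4, where the ribosomal proteins were lowest. The part of blood or other cells in the ribosomal protein ratios was not tested.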

How the data were processed

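RNA of cocaine and saline pups was compared on 5 2-colour arrays, 1 replicate each. The authors deposited log2 ratios for 44290 features; image analysis, background subtraction and normalization are not given in the sources used here, and the deposited table holds neither intensities nor direction. Exact zeros and the ceiling of 16.61 (log2 of 100000) were set to missing, arrays were centred on their medians, and probes of 1 gene symbol were averaged. Of the features 32042 had 1 symbol, 47 several and 12201 none, and 31906 of the features with 1 symbol matched a RefSeq table by identifier. Genes and unnamed features with values on at least 3 arrays entered limma 3.58.1 (R 4.3.3; lmFit, eBayes, intercept only), with Benjamini-Hochberg adjustment and calls at 0.05. A second limma fit set arrays 1 and 2 against 3 to 5. Lists and subunits are described without a test.

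The text names the 12 members with the highest and the 6 with the lowest means among those on all 5 arrays, members of the role lists, up to 12 called members, those with probes of opposite sign, and, of other lists, up to 4 past the threshold. Other genes near the threshold or in the split were named after their values were seen. Members and lists were chosen with earlier results of these data known. Tested on simulated data of 28035 genes, limma found 44 of 100 genes shifted by 2 on the log2 scale and 99 of 100 shifted by 4, with 11 false calls. In the second fit, over 21406, it found 0 of 69 shifted by 2 and 22 of 78 shifted by 4. Alternatives covered centring, scaling, missing values, probe choice, filters, weights, and each array or set of arrays left out. The number of arrays limits the precision.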

Additional observations from a re-analysis of the deposited data

Results flagged for a closer look

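Of 69 members with at least 4 values, 2 had 1 array whose gap to its nearest neighbour was large against the range of all arrays by Dixon's criterion at the 95% level, and chance gives about 1 in 20. On array 2 the log2 ratio of Rpl10a was 3.575, where its other arrays lay between 1.05 and 1.70. On the same array that of Rpl26 was 4.625, where its others lay between 0.65 and 1.80. Array 2 gave the highest value in 58 of the 68 members measured throughout. Rpl10a was called higher with an adjusted p of 0.0279 by limma and Rpl26 with 0.0465. Without array 2 no member at all was called, so the loss of these calls is not particular to the 2 genes.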

How the results depend on the processing

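No member was called lower in any of the 22 settings run, and from 41 to 62 were called higher when arrays were scaled to 1 spread, weights or a robust prior were used, probes were chosen otherwise, the filter or the features were changed, or array 3, 4 or 5 was left out. Of everything tested, from 5.03% to 16.5% was then called higher, and 48.3% without small whole-number ratios, where 62 members were called. Against 49 in the report, limma called 0 members higher with no centring, 31 with arrays centred on genes measured on all 5, 0 with exact zeros kept, 0 with zeros and the ceiling value kept, and 0 on arrays 3 to 5 alone, with 1, 56, 55, 51 and 43 at unadjusted p under 0.05. In these settings 0.225%, 3.69%, 0.163%, 0.0% and 0.0% of everything tested was called higher, against 5.89%, so the losses were not limited to the members. Leaving out 1 array gave from 0 (array 2) and 1 (array 1) to 44 (array 3), where 0.258%, 0.232% and 5.13% of everything tested was called higher. The median of the members was 0.75 with no centring. The cause was not tested, other than that no centring moved the median of all tested to -1.52, and centring on genes measured on all 5 moved it to -0.45. For arrays 1 and 2 against 3 to 5, no centring called 1 member, among 3241 of 21406 called, and turned the median difference to -0.72, and leaving out 1 array moved it between 0.93 and 2.17. Each ratio already pairs cocaine with saline on 1 array, so no further block was fitted.

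Without centring all genes on all 5 arrays move down alike, and the 13 members with positive means up to 1.19 turned sign. The means were -0.30 for Rpl11, -1.34 for Rpl14, -1.59 for Rpl21, -0.34 for Rpl31, -0.53 for Rpl32, -0.52 for Rpl37, -0.48 for Rpl9, -0.26 for Rps13, -0.27 for Rps15a, -0.042 for Rps19, -0.65 for Rps20, -0.029 for Rps24 and -0.998 for Rps6. Centred on genes measured on all 5 arrays, Rpl14 was at -0.17, Rpl21 at -0.10 and Rps6 at -0.070. Rpl14 and Rps6 were at -0.075 and -0.056 with zeros kept, and at -0.082 and -0.063 with the ceiling value kept too. With 1 probe per gene Rpl27a was at 0.64, Rps19 at -1.53 and Rps20 at -0.70, and with NM probes alone Rpl27a was at 0.64. On arrays 1 and 2 alone Rpl27a was at 0.66, and on arrays 3 to 5 alone Rps20 was at -0.37 and Rps6 at -0.33. Leaving out 1 array put Rpl14 between -0.12 and 0.32, Rpl27a between -0.61 and 0.26, and Rps6 between -0.027 and 0.48.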
